A study of Rattus norvegicus with 33 samples.

Results

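Reads named after 6 genera of butyrate-producing gut bacteria, Roseburia, Faecalibacterium, Anaerostipes, Anaerobutyricum, Butyrivibrio and Pseudobutyrivibrio, were followed in the cecal contents of 33 rats. The genera were chosen by name, as well-known butyrate formers, at a time when earlier results of these data were known. They are 6 of the 1455 bacterial genera in the deposited table, with 11 of its 5999 named species, and all of them passed the filter on low values. The donors came from 2 inbred rat strains of shared origin. The spontaneously hypertensive rat (SHR) grows hypertensive with age, and the Wistar Kyoto rat (WKY) is its customary normotensive control. SHR gave 10 females and 7 males and WKY gave 9 females and 7 males, all sampled at 14 to 15 weeks of age, with no treatment or transgene named in the labels. DNA of the cecal contents was shotgun sequenced, and reads were deposited under the names of taxa. Each library came from its own rat. Cages, litters and sequencing runs are not named in the labels. The animals were numbered separately by strain, so order of handling and strain cannot be told apart.

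Butyrate is a short-chain fatty acid that bacteria of the large intestine make from dietary fibre and that the cells lining the colon use as fuel. Most butyrate formers belong to the Firmicutes families Lachnospiraceae and Ruminococcaceae. Many of them finish the pathway by moving coenzyme A from butyryl-CoA to acetate, and so take up acetate made by other bacteria, while some can also use lactate. Butyrate and the bacteria that form it have been studied in SHR because of a proposed link to blood pressure.

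Of the 6 genera, 5 belong to the Lachnospiraceae and 1, Faecalibacterium, to the Ruminococcaceae. Faecalibacterium, Anaerobutyricum and Pseudobutyrivibrio each held a single species, F. prausnitzii, A. hallii and P. xylanivorans, with the same reads as the genus, so genus and species are there 1 measurement and not 2. Roseburia held 2 species and Anaerostipes and Butyrivibrio held 3 each. A name says only which taxon a read was assigned to, and how reads were assigned is not given. The species of these genera are known from people, cattle and other hosts, and rat relatives without a reference genome could carry their names. The names were not checked against reads.

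Libraries held 163140 to 886827 classified reads. Among females the median was 365717 in SHR against 706634 in WKY, and among males 547938 against 688051, which leaves the SHR side with less depth. Bacteroides, Muribaculum and Lactobacillus, common residents of the rodent gut, were the 3 most abundant genera over all rats. Roseburia gave between 1216 and 11029 reads per library, Faecalibacterium 722 to 9033, Anaerostipes 620 to 3986, Butyrivibrio 418 to 3270, Anaerobutyricum 307 to 2671 and Pseudobutyrivibrio 146 to 1004. Reads carry no molecular identifiers, and these depths bear on counting error only.

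The 6 genera ranked high among all genera, though below the most abundant ones, and kept the same order of mean share in all 4 groups. Over all 33 rats Roseburia ranked number 16 of the 1455 genera by mean share of reads, Faecalibacterium number 27, Anaerostipes number 36, Butyrivibrio number 40, Anaerobutyricum number 54 and Pseudobutyrivibrio number 83. A share of reads is not corrected for genome size, so this is an order of reads and not of cells. Together they took 3.00 ± 0.871% (mean ± SD) of classified reads in SHR females and 1.99 ± 0.518% in WKY females, and 2.85 ± 0.794% in SHR males against 2.42 ± 0.920% in WKY males. Single rats ran from 1.03% in a WKY male to 5.20% in SHR female 1. SHR rats were the higher ones on average by share of reads, but the ranges of all 4 groups overlapped. Mean normalized values, reads divided by a size factor of the library, were 13773 in SHR females against 11774 in WKY females. In males they were 12968 in SHR against 13963 in WKY.

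**Figure D1:**
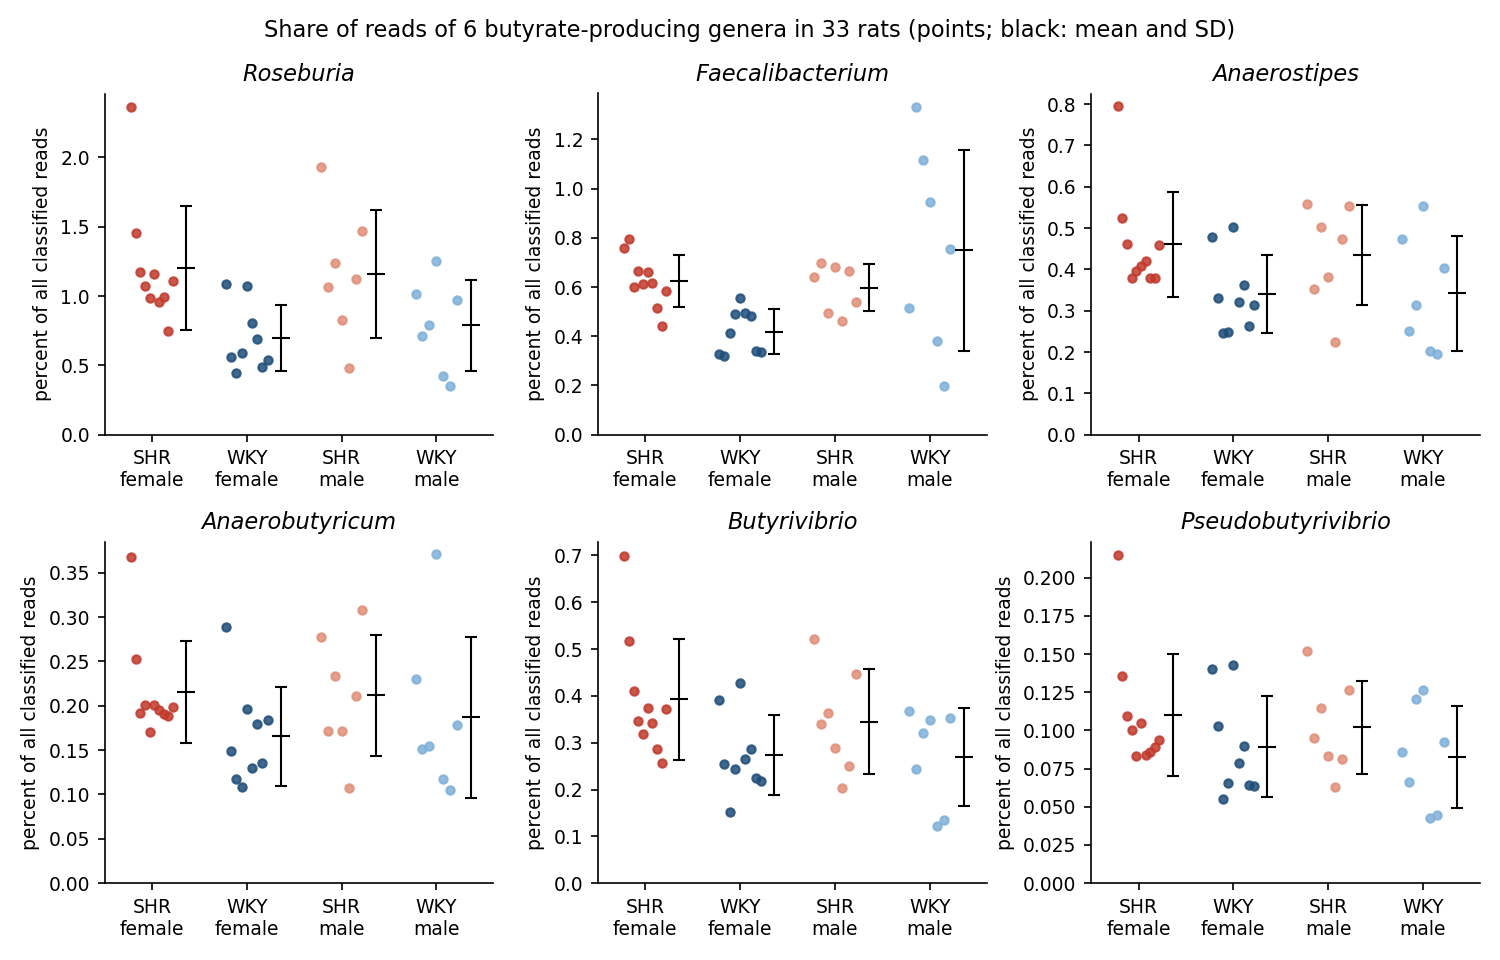
Share of all classified reads (percent, vertical axis, each panel with its own scale from 0) of the 6 genera, 1 point per rat, with the mean and SD of each group in black. SHR female 1 is the highest point in 4 panels (Roseburia at 2.36%, Anaerostipes at 0.796%, Butyrivibrio at 0.700% and Pseudobutyrivibrio at 0.215%), and Faecalibacterium spreads most widely among WKY males, from 0.197% to 1.33%.

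Differences between groups were tested on the authors' normalized values, reads divided by a size factor of the library, as log2(value + 1). limma was fitted to all 1418 genera, or 4641 species, that passed the filter, and a call means a 2-sided Benjamini-Hochberg adjusted p under 0.05 over all of them. Log2 fold changes are given ± SE. The same fits were made on percent of reads, and the scale matters here. In the strain comparisons the median of all genera lay at -0.05 in females and -0.01 in males on the size-factor scale, but at 0.34 and 0.40 on percent of reads. A value on percent of reads is therefore best read against that shift. Lactobacillus, a lactic acid bacterium, averaged 3.41% in SHR females against 8.66% in WKY females, and Akkermansia, a mucin degrader, 0.5% against 5.91%. With the reads of Akkermansia and the Lactobacillaceae genera taken out of every library, the median of all genera was 0.13 in females and 0.18 in males. The part of depth in the shift was not tested.

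Roseburia, a flagellated genus that takes up acetate and ferments plant polysaccharides, was the most abundant of the 6. In SHR females its share of reads was 0.745% in the lowest rat, 1.09% at the median and 2.36% in the highest. In WKY females it was 0.445%, 0.590% and 1.08%. On percent of reads all 10 SHR females lay above the WKY female median and 5 of them above every WKY female. On that scale 6 of 9 WKY females lay below every SHR female. By size factors the separation was weaker. There 9 SHR females lay above the WKY female median, 1 lay above every WKY female and 3 WKY females lay below every SHR female. On the size-factor scale the log2 fold change of Roseburia, SHR minus WKY, was 0.41 ± 0.19 (limma, 95% interval 0.01 to 0.80, adjusted p 0.276), which is not a call. Roseburia was called in females on percent of reads, at 0.80 ± 0.25 (limma, adjusted p 0.0296). On that scale 12.7% of all genera were called higher in SHR females, so 1 of 6 is near the background. Without SHR female 1, the rat with the highest value, Roseburia was at 0.68 on percent of reads (adjusted p 0.0769, limma) and at 0.31 by size factors (adjusted p 0.437, limma).

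In males, Roseburia took 0.480%, 1.12% and 1.93% (lowest, median, highest) in SHR and 0.348%, 0.794% and 1.25% in WKY. Of the 7 SHR males, 6 lay above the WKY male median on percent of reads and 2 above every WKY male. By size factors these numbers were 5 and 1, and 1 SHR male lay below every WKY male. On the size-factor scale the log2 fold change of Roseburia was 0.17 ± 0.23 (limma, 95% interval -0.29 to 0.63, adjusted p 0.863), and it was 0.58 ± 0.29 (adjusted p 0.167) on percent of reads. The sexes of neither strain were told apart in Roseburia, and its strain difference was not shown to differ between the sexes (strain by sex, 0.24 ± 0.30, limma adjusted p 0.959).

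Faecalibacterium, a strict anaerobe that also depends on acetate, behaved unlike the other 5 genera. Its share was 0.443%, 0.615% and 0.794% (lowest, median, highest) in SHR females and 0.464%, 0.640% and 0.698% in SHR males. It was 0.318%, 0.414% and 0.557% in WKY females, and 0.197%, 0.754% and 1.33% in WKY males. By share of reads WKY males thus held both the highest and the lowest values of all 33 rats. Their coefficient of variation was 54.7% against 16.1% to 21.7% in the other groups. On that scale all 9 WKY females lay below the WKY male median. Of the 7 WKY males, 4 lay above every WKY female and 1 lay below all of them. By size factors all 9 WKY females again lay below the WKY male median, and 4 WKY males lay above every WKY female. There 0 WKY males lay below every WKY female, and 2 WKY females lay below every WKY male.

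Between the sexes of WKY, Faecalibacterium was lower in females by a log2 fold change of -0.65 ± 0.18 (female minus male, limma, 95% interval -1.02 to -0.28, adjusted p 0.0474). This was the only call among the 6 genera on the size-factor scale, where 2.4% of all genera were called in that comparison (34 of 1418). The recovered reads gave -0.75 with edgeR (adjusted p 0.0188), which called 2.89% of all genera, and -0.73 with DESeq2 (adjusted p 0.00301), which called 4.94%. The call was lost in several settings, with limma adjusted p 0.328 on percent of reads, 0.129 on the share without Lactobacillaceae and Akkermansia and 0.218 when only the WKY rats were fitted. Leaving out 1 library at a time, the adjusted p of Faecalibacterium ran from 0.0205 to 0.172, and the call was lost for 23 of the 33 libraries. As F. prausnitzii among 4641 species, with the same reads but a larger family of tests, it did not pass (limma, adjusted p 0.154, with 0.711% of species called).

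Between the strains, Faecalibacterium pointed in opposite directions in the 2 sexes. In females the log2 fold change, SHR minus WKY, was 0.21 ± 0.17 (limma, 95% interval -0.13 to 0.55, adjusted p 0.584). In males it was -0.51 ± 0.19 (limma, 95% interval -0.90 to -0.11, adjusted p 0.258), and all 7 SHR males lay below the WKY male median, although 2 WKY males lay below every SHR male on percent of reads. DESeq2 on the recovered reads called the male difference (-0.58, adjusted p 0.0398, with 1.83% of all genera called), and edgeR did not (-0.60, adjusted p 0.112). The male value of Faecalibacterium was -0.10 on percent of reads (limma, adjusted p 0.778). The difference of the 2 strain effects, 0.72 ± 0.26, did not pass (limma, 95% interval 0.20 to 1.24, adjusted p 0.531). The sexes of SHR differed by 0.06 ± 0.18 (limma, adjusted p 0.989).

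Anaerostipes ferments sugars, and some of its species turn lactate and acetate into butyrate. It took 0.379%, 0.414% and 0.796% (lowest, median, highest) in SHR females and 0.246%, 0.322% and 0.503% in WKY females. In males it took 0.225%, 0.473% and 0.557% in SHR and 0.195%, 0.314% and 0.554% in WKY. On percent of reads all 10 SHR females and 6 of 7 SHR males lay above the median of their WKY counterparts. Only 2 females and 1 male lay above every WKY rat of their sex. By size factors 6 of 10 females and 4 of 7 males lay above that median, and 1 female and 0 males above every WKY rat. On the size-factor scale the log2 fold change of Anaerostipes was 0.06 ± 0.16 in females (limma, 95% interval -0.27 to 0.39, adjusted p 0.891) and -0.02 ± 0.19 in males (95% interval -0.40 to 0.37, adjusted p 0.989). It was 0.44 and 0.39 on percent of reads, near the median of all genera.

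Anaerobutyricum, long known as Eubacterium hallii, forms butyrate from lactate and acetate. In SHR females it took 0.170%, 0.197% and 0.368%, and in WKY females 0.108%, 0.149% and 0.289%. In SHR males it took 0.107%, 0.212% and 0.308%, and in WKY males 0.105%, 0.155% and 0.371%. On percent of reads all 10 SHR females and 6 of 7 SHR males lay above the median of the WKY rats of their sex, and the ranges overlapped. By size factors 9 of 10 SHR females and 4 of 7 SHR males did. The log2 fold change of Anaerobutyricum on the size-factor scale was 0.03 ± 0.18 in females (limma, 95% interval -0.33 to 0.39, adjusted p 0.963) and -0.18 ± 0.21 in males (95% interval -0.60 to 0.25, adjusted p 0.838).

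Butyrivibrio and Pseudobutyrivibrio, best known from the rumen, break down hemicelluloses such as xylan. Butyrivibrio took 0.256%, 0.3598% and 0.700% in SHR females against 0.152%, 0.255% and 0.427% in WKY females. In males it took 0.202%, 0.341% and 0.523% in SHR against 0.121%, 0.320% and 0.367% in WKY. Its log2 fold change was 0.14 ± 0.17 in females (limma, 95% interval -0.20 to 0.48, adjusted p 0.722) and 0.00 ± 0.19 in males (95% interval -0.39 to 0.39, adjusted p 0.999). All 10 SHR females lay above the WKY female median on percent of reads, but only 4 of 7 SHR males lay above that of WKY males. By size factors these numbers were 8 and 4.

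Pseudobutyrivibrio, the least abundant of the 6, took 0.0831%, 0.0970% and 0.215% in SHR females against 0.0550%, 0.0790% and 0.143% in WKY females. In males it took 0.0631%, 0.0950% and 0.152% in SHR against 0.0429%, 0.0862% and 0.126% in WKY. The log2 fold change of Pseudobutyrivibrio was -0.06 ± 0.16 in females (limma, 95% interval -0.39 to 0.27, adjusted p 0.892) and -0.04 ± 0.19 in males (95% interval -0.43 to 0.34, adjusted p 0.977). The same differences were positive on percent of reads, at 0.32 and 0.37, close to the median of all genera.

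In counts, limma on the size-factor scale called 0 of the 6 genera for the strain difference of females, where 0.917% of all genera were called (13 of 1418). For the strain difference of males it called 0 of 6, where 0% of all genera were called. For the sexes of SHR and for strain by sex it called 0 of 6 as well, with 0% of all genera each time. An unadjusted p under 0.05 was found for 1 of 6 in females (Roseburia), near the share of all genera (233 of 1418), for 1 in males and 1 in strain by sex (Faecalibacterium both times), and for 0 of 6 in the sexes of SHR. edgeR called 0 of 6 in each of these 4 comparisons, and DESeq2 called 1 (Faecalibacterium in males) and 0 in the other 3. For the strain difference of females, the calls of both tools over all genera are not given here, so those counts have no background. Among all 1418 genera in males, where limma called 0, 164 had an unadjusted p under 0.05, edgeR called 13 and DESeq2 called 26. Between the sexes of SHR 45 had an unadjusted p under 0.05 and both count tools called 0, and for strain by sex these numbers were 87, 0 for edgeR and 2 for DESeq2. The median log2 fold change of the 6 genera was 0.10 in females and -0.03 in males. On percent of reads limma called 0 of 6 in males, where 6.28% of all genera were called higher in SHR. An unadjusted p under 0.05 was found on that scale for 0 of 6 in males and for 4 of 6 in females. The numbers of all genera at that p on percent of reads are not given here for the strain comparisons, so neither count was set against a background.

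**Figure D2:**
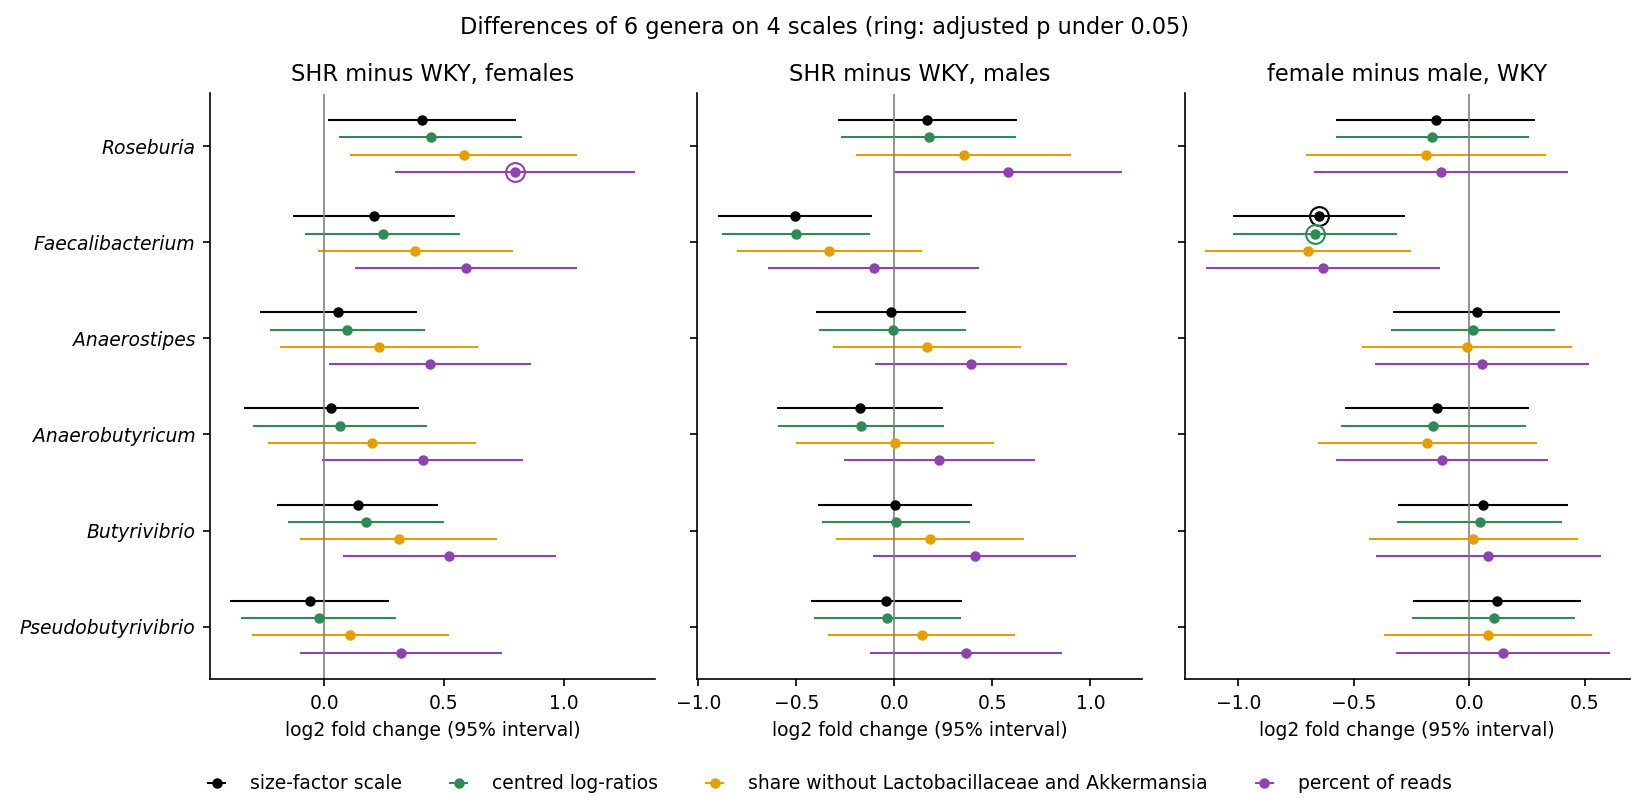
Log2 fold change (horizontal axis) of the 6 genera with its 95% interval from limma, on 4 scales, for the strain difference (SHR minus WKY) of each sex and for female minus male in WKY. Points move to the right from the size-factor scale to percent of reads in both strain comparisons, Roseburia from 0.41 to 0.80 in females, and rings mark values called at 0.05, which in WKY was Faecalibacterium on 2 scales, size factors and centred log-ratios.

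The relative levels of the genera can be compared without any choice of scale, since a ratio of reads within a library does not depend on its depth or its size factor. Relative to Roseburia, most genera were lower in SHR females than in WKY females, and 4 of the other 5 members were among them. Of the 1377 tested genera besides Roseburia with a read in every library, 90.4% had a negative difference, with a median of -0.45 and quartiles of -0.65 and -0.26. By the same test 36.5% of them were lower in SHR females at an unadjusted p under 0.05 (503 of 1377), as were 4 of the 5 members. Adjusted over all 1377, 143 genera passed as lower, 3 of the members among them. In females the differences of 4 members lay within the quartiles of all genera and that of Faecalibacterium was smaller in size, so the ratios show the place of Roseburia against the community and nothing particular to the other members. These tests were 2-sided exact permutation tests over every division of the rats, 92378 for females and 3432 for males, with Benjamini-Hochberg adjustment over 10 tests. All 5 ratios share the reads of Roseburia, so they are not independent of each other.

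Pseudobutyrivibrio had a log2 ratio to Roseburia of -3.44 ± 0.147 (mean ± SD) in SHR females and -2.97 ± 0.245 in WKY females. The ranges were -3.57 to -3.06 and -3.35 to -2.44. They overlapped little, and all 10 SHR females lay below the WKY female median. The difference of -0.47 passed (exact permutation test, adjusted p 0.00152).

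Butyrivibrio was at -1.60 ± 0.103 against -1.34 ± 0.170, a difference of -0.27 (exact permutation test, adjusted p 0.00422). Anaerostipes was at -1.35 ± 0.177 against -1.005 ± 0.210, a difference of -0.35 (exact permutation test, adjusted p 0.00624). For both genera, too, all 10 SHR females lay below the WKY female median. These 3 ratios passed also with each library left out in turn, with adjusted p up to 0.00288 for Pseudobutyrivibrio, 0.0101 for Butyrivibrio and 0.0129 for Anaerostipes in the same exact permutation test.

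Anaerobutyricum was at -2.44 ± 0.197 in SHR females and -2.07 ± 0.357 in WKY females, a difference of -0.38 (exact permutation test, adjusted p 0.0291), and again every one of the 10 SHR females was lower than the median WKY female. This call was lost when any 1 of 10 libraries was left out, SHR females 1, 2, 3, 5 and 6 or WKY females 2, 3, 7, 8 and 9, with adjusted p between 0.0509 and 0.0618 (exact permutation test). Faecalibacterium was at -0.89 ± 0.288 in SHR females and -0.69 ± 0.466 in WKY females, and the difference of -0.20 did not pass (exact permutation test, adjusted p 0.282). Without WKY female 1 it was -0.33 with adjusted p 0.0424.

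In males every one of the 5 differences was negative as well, and none passed. Over 1377 genera the median was -0.17 in males, and 4.79% were lower at an unadjusted p under 0.05, against 1 of the 5 members (Anaerobutyricum). The Anaerobutyricum ratio differed by -0.35, with 7 of 7 SHR males below the WKY median (exact permutation test, adjusted p 0.0699), and without WKY male 7 by -0.41 (adjusted p 0.0268). Faecalibacterium differed by -0.68 (adjusted p 0.118, exact permutation test), Pseudobutyrivibrio by -0.21 (0.243), Anaerostipes by -0.18 (0.243) and Butyrivibrio by -0.17 (0.260). Whether the sexes differ in this was not tested.

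**Figure D3:**
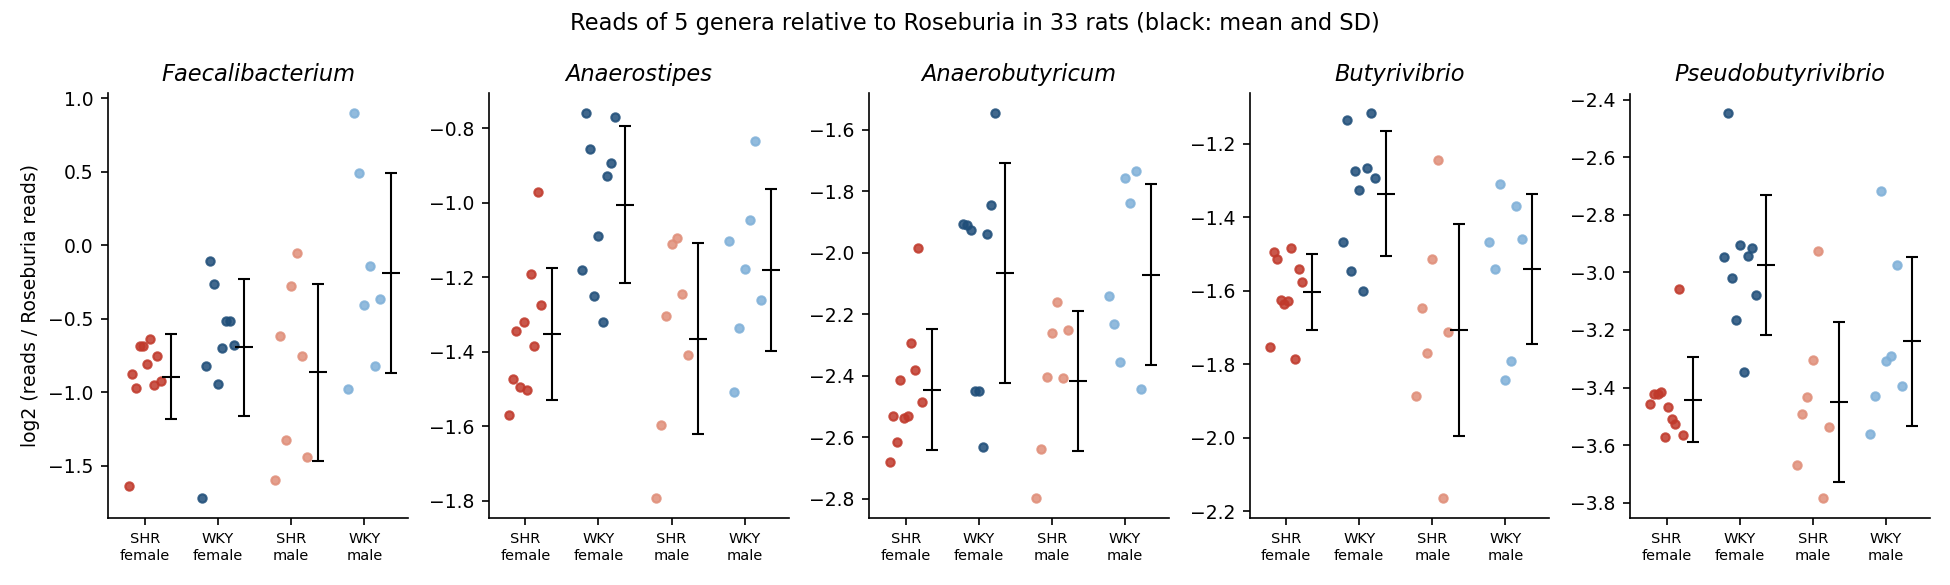
Log2 ratio of the reads of 5 genera to the reads of Roseburia (vertical axis, each panel with its own scale), 1 point per rat, mean and SD in black. In Anaerostipes, Anaerobutyricum, Butyrivibrio and Pseudobutyrivibrio the SHR females lie lower than the WKY females, for Pseudobutyrivibrio at -3.44 against -2.97, while the male groups overlap more.

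The species of the 3 genera with several species were of like abundance within their genus. R. intestinalis took 50.8 ± 1.74% of Roseburia reads in SHR females and 51.7 ± 4.56% in WKY females, and 52.3 ± 2.83% in SHR males against 49.4 ± 5.37% in WKY males. R. hominis took 44.4 ± 2.04% against 44.4 ± 4.76% in females and 42.9 ± 3.34% against 47.2 ± 6.22% in males. The ranges of all 4 groups overlapped for both species, and the differences were not tested.

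Within Anaerostipes, A. caccae took a larger and A. rhamnosivorans a smaller average part in WKY females than in the other 3 groups. A. caccae, which uses lactate, took 38.5 ± 5.41% of Anaerostipes reads in WKY females, from 31.9% to 46.3%, against 30.1 ± 3.46% in SHR females, from 23.5% to 35.1%. In SHR males it took 28.4 ± 1.70% and in WKY males 29.7 ± 2.62%. A. rhamnosivorans, known for growth on rhamnose, took 22.7 ± 3.45% in WKY females, 29.8 ± 1.94% in SHR females, 27.8 ± 2.88% in SHR males and 27.1 ± 1.92% in WKY males. A. hadrus, a common human gut species, took 32.99% in WKY females and 33.3% in SHR females, and 37.4% in WKY males and 36.8% in SHR males. These shares were looked at as a description, and their differences were not tested.

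Within Butyrivibrio, B. fibrisolvens, a classic rumen fibre degrader, took 32.7% to 35.2% of the reads on average in the 4 groups, B. proteoclasticus 30.6% to 34.4% and B. hungatei 23.3% to 25.8%. Reads named to Butyrivibrio but to no species took 11.3 ± 1.91% in SHR females against 8.11 ± 1.60% in WKY females, and 10.2 ± 2.50% in SHR males against 7.70 ± 1.35% in WKY males. In Roseburia this part was 4.82 ± 0.533% against 3.86 ± 0.428% in females and 4.78 ± 0.741% against 3.40 ± 1.04% in males. In Anaerostipes it was 6.89 ± 0.975% against 5.82 ± 1.83% in females and 6.96 ± 1.25% against 5.81 ± 1.17% in males. In all 3 genera it was higher in SHR than in WKY on average. In Roseburia the ranges of SHR females (4.09% to 6.09%) and WKY females (3.31% to 4.68%) overlapped in part. The differences were not tested.

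**Figure D4:**
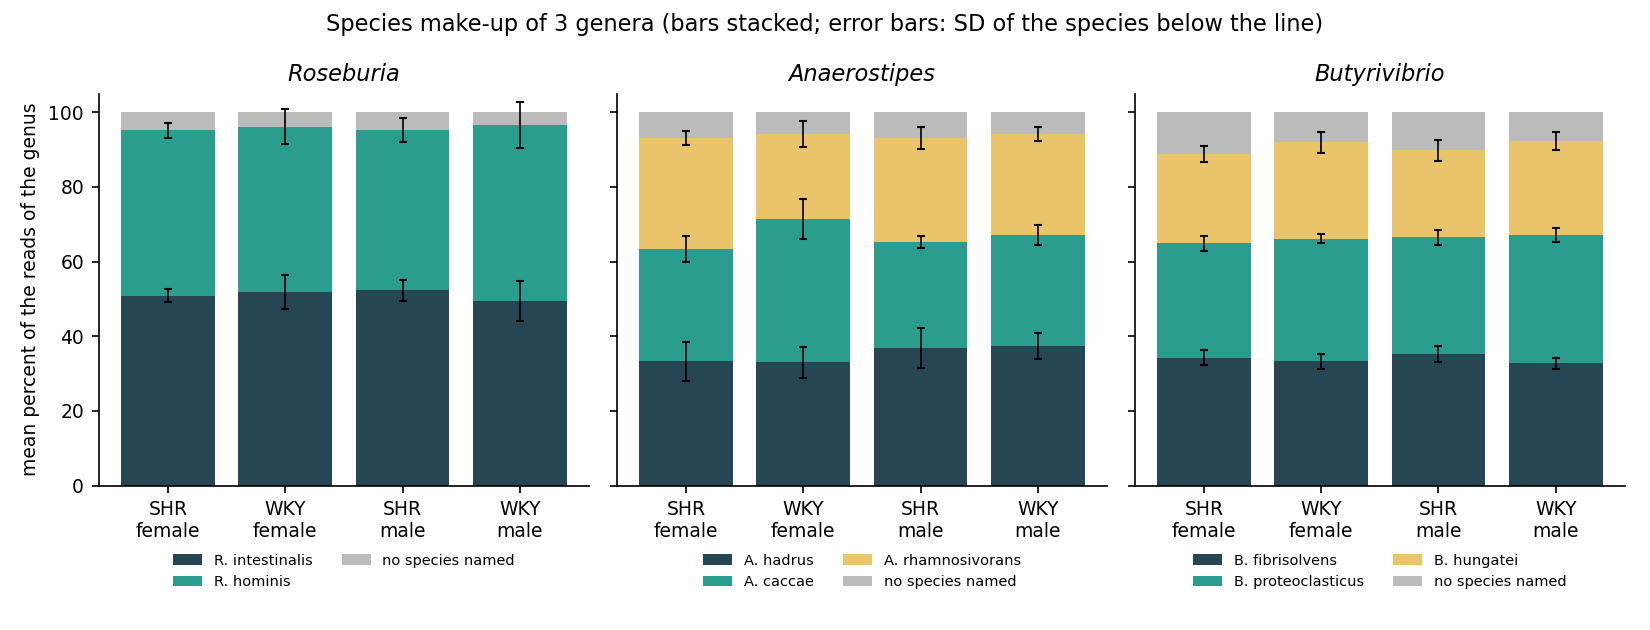
Mean percent of the reads of Roseburia, Anaerostipes and Butyrivibrio (vertical axis, stacked to 100) that were named to each species or to none, in the 4 groups, with error bars for the SD of the species below each line. Anaerostipes caccae is larger in WKY females (38.5%) than in the other groups, and the species of Roseburia and Butyrivibrio keep about the same parts.

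None of the 11 species was called by limma on the size-factor scale in any of the 5 comparisons. Of all 4641 species, 2.33% were called for the strain difference of females and 0.539% for that of males. The sexes of WKY gave 0.711%, strain by sex 0.0215% and the sexes of SHR 0%, where 167 species had an unadjusted p under 0.05 and edgeR and DESeq2 called 0. At an unadjusted p under 0.05 there was 1 of 11 in each comparison except between the sexes of SHR, where there were 0 of 11. The numbers of all species at that p, and of edgeR calls, are not given here for the other comparisons. The 1 of 11 was therefore not set against a background and does not mark these species out. edgeR called 0 of 11 in all 5 comparisons. DESeq2 called F. prausnitzii between the strains in males, where it called 3.75% of all species, and between the sexes of WKY, where it called 3.79%, and none of the 11 in the other 3 comparisons.

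The species of Roseburia and A. rhamnosivorans had the largest log2 fold changes between the strains in females. Anaerostipes rhamnosivorans was at 0.46 ± 0.20 (limma, 95% interval 0.06 to 0.86, adjusted p 0.211). Its share was 0.0975%, 0.128% and 0.247% (lowest, median, highest) in SHR females and 0.0483%, 0.0736% and 0.113% in WKY females. On percent of reads all 10 SHR females lay above the WKY female median and 7 above every WKY female. By size factors these numbers were 10 and 2. Roseburia hominis was at 0.41 ± 0.22 (adjusted p 0.322, limma) and Roseburia intestinalis at 0.39 ± 0.23 (adjusted p 0.386). Anaerostipes caccae pointed the other way, at -0.29 ± 0.20 (limma, adjusted p 0.471), and at 0.09 on percent of reads.

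limma called 2 of the 11 species higher in SHR females on percent of reads, Anaerostipes rhamnosivorans (0.84, adjusted p 0.0193) and Roseburia hominis (0.80, adjusted p 0.0485), where 9.72% of all species were called higher. Without SHR female 1, Anaerostipes rhamnosivorans was at 0.74 on that scale (limma, adjusted p 0.0477), and Roseburia hominis was at 0.67 and no longer called (adjusted p 0.112). In males the log2 fold changes of the 8 species that share a genus with others lay between -0.13 (Butyrivibrio proteoclasticus) and 0.26 (Roseburia intestinalis) on the size-factor scale.

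The Lachnospiraceae among the 6 genera varied together from rat to rat, and Faecalibacterium did not vary with them. The measure was Pearson's r over 33 libraries on deviations of log2(normalized value + 1) from the group mean. It is given as a description with no test, since genera of a library share its depth and its scaling. Anaerostipes and Anaerobutyricum had r = 0.91, Roseburia and Butyrivibrio 0.89, and Butyrivibrio and Pseudobutyrivibrio 0.87. The lowest r among the 5 Lachnospiraceae was 0.68, for Anaerobutyricum and Butyrivibrio. Faecalibacterium had r between -0.14 (with Anaerostipes) and 0.17 (with Roseburia). On centred log-ratios the same pairs had r of 0.91, 0.88, 0.86, 0.67, -0.22 and 0.09.

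The genera outside the 6 that were most like a member were mostly other Lachnospiraceae. Lacrimispora had r = 0.92 with Roseburia and r = 0.92 with Butyrivibrio, followed by Hungatella (0.91 with both) and by Lachnoclostridium for Roseburia (0.84) and Lachnospira for Butyrivibrio (0.85). Anaerostipes went with Herbinix (0.94), Anaerocolumna (0.93) and Lacrimispora (0.88), and Anaerobutyricum with Anaerocolumna (0.91), Blautia (0.91) and Herbinix (0.87). Pseudobutyrivibrio went with Lachnospira (0.86), Lachnoanaerobaculum (0.82) and Lacrimispora (0.80). Faecalibacterium was most like genera of other families, Brevundimonas (0.86), Tessaracoccus (0.81) and Acidaminococcus (0.81). Related genomes can share reads, and the part of shared reads in these values was not tested.

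Among 10 other genera with butyrate-forming members that were tested, such as Eubacterium, Intestinimonas, Oscillibacter and Odoribacter, limma called 0 between the strains in females and 0 in males on the size-factor scale. Their median log2 fold change was 0.17 in females, from -0.11 (Butyricimonas) to 0.37 (Lachnoclostridium), with 8 of 10 above 0, and -0.01 in males. An unadjusted p under 0.05 was found only for Lachnoclostridium in females (0.37, limma adjusted p 0.301) and for Acidaminococcus, a fermenter of amino acids, in males (-0.51, adjusted p 0.148). In both sexes this is no more than the share of all genera at that p, given above. Between the sexes of WKY 1 of 10 was called, Acidaminococcus, lower in females by -0.59 ± 0.15 (limma, adjusted p 0.0331), where 2.4% of all genera were called. That call was lost on percent of reads (-0.57, limma adjusted p 0.294), where 0 of 1418 genera were called and 146 had an unadjusted p under 0.05. Lachnoclostridium was called higher in SHR females on percent of reads (0.77, limma adjusted p 0.0296), where 12.7% of all genera were called higher.

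Of 6 genera known to supply acetate or lactate, limma called 0 between the strains in females and 0 in males on the size-factor scale. Their median log2 fold change was -0.52 in females and -0.54 in males. The most negative values were those of Akkermansia, at -3.18 (adjusted p 0.159) in females and -2.29 (0.522) in males, and Lactobacillus, at -1.90 (0.109) and -1.51 (0.384). Ruminococcus, a degrader of resistant starch and cellulose, was at -0.46 (0.251) and -0.71 (0.200). Bacteroides was called higher in WKY females than in WKY males, at 1.37 ± 0.39 (limma, adjusted p 0.0483, with 2.4% of all genera called). This was lost on percent of reads (1.48, limma adjusted p 0.132). Blautia was at 0.06 (0.914) in females and -0.37 (0.522) in males, and Bifidobacterium at -0.58 (0.686) and 0.32 (0.954). Bacteroides was at -0.24 (0.793) and 0.71 (0.522), so 1 of the 6 was positive in females and 2 in males.

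Reads assigned to functional subsystems gave a second readout of the same libraries. Of 1057 subsystems, 5 were picked because their name held a form of the words butyrate or butanol. One of these, the Isobutyryl-CoA to Propionyl-CoA Module, is listed at 0 reads in every library. Acetone Butanol Ethanol Synthesis, Butanol Biosynthesis and Polyhydroxybutyrate metabolism were also among them. Such a name does not make a subsystem a pathway of butyrate formation. The subsystem Acetyl-CoA fermentation to Butyrate, the pathway by which the genera above form butyrate, averaged 236 ± 58.3 normalized reads in SHR females and 177 ± 55.1 in WKY females, with ranges of 153 to 338 and 116 to 291. It averaged 275 ± 89.0 in SHR males and 188 ± 50.1 in WKY males, with ranges of 176 to 413 and 108 to 252. SHR was higher on average in both sexes, with ranges that overlapped widely. The log2 fold change of Acetyl-CoA fermentation to Butyrate was 0.42 ± 0.18 in females (limma, 95% interval 0.05 to 0.80, adjusted p 0.138) and 0.53 ± 0.21 in males (95% interval 0.10 to 0.96, adjusted p 0.148), and neither passed.

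limma called 0 of the 5 subsystems in either strain comparison, where 8.42% of all subsystems were called in females and 2.46% in males. At an unadjusted p under 0.05 there was 1 of 5 in each, the fermentation subsystem, against 264 of 1057 subsystems in females and 203 in males, so this is no more than the background. edgeR on the recovered reads called 0 of the 4 with reads, and 102 and 37 of 1024 subsystems. Subsystem reads are not tied to genera in the deposited tables, so which bacteria they came from is not given. Each library held 50 to 375 reads of the fermentation subsystem.

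The authors' deposited model tables list taxa past an adjusted p of about 0.01 in their own DESeq2 fits. By identifier, none of the 6 genera or 11 species stands in these tables, for all rats (463 entries), females (236) or males (41). None of the subsystems picked by name stands in the authors' deposited tables of functions. One entry of the authors' deposited table for females is printed with the genus name Roseburia, with a base mean of 81.0, a log2 fold change of -3.32 and an adjusted p of 4.10e-42. Its identifier belongs in the deposited percent table to another organism, Duncaniella sp. C9. Normalized reads of Duncaniella sp. C9 averaged 85.8 over the females, 150 in SHR and 14.9 in WKY. Reads named to Roseburia without a species averaged 214, 262 in SHR females and 161 in WKY females. Both names were thus higher in SHR females, so the sign of -3.32 is opposite to SHR minus WKY for either. The direction of the authors' comparison is not given here. In the authors' deposited table for all rats, 316 of 316 base means that could be compared equalled the mean normalized value of the taxon with the same identifier within 0.1%, and 2 of 316 that of the printed species name. The base means of the authors' deposited table for females equalled neither (0 of 149 by either key), and there 2 of 170 printed names matched the identifier. That entry was therefore not used as a value of Roseburia.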

How the data were processed

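Shotgun DNA libraries of the cecal contents of 33 rats were used, grouped by strain and sex as the labels give them. The members and lists were chosen with earlier results of these data known. The tools named are cutadapt 2.6, Trimmomatic 0.36, FastQC 0.11.5 and DESeq2, per the submitters' processing notes, which give no order here. Neither classifier nor database is given in the sources used here.

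The authors deposited percent of all classified reads per bacterial genus and species. They also deposited a normalized signal per taxon and per functional subsystem, which is reads divided by a size factor of the library, and tables of their models with log2 fold changes and p-values. Dividing each value by the step of 1 read gave whole reads for 100% of values (tolerance 0.01 read), equal in both tables for 5543 species. These recovered reads entered edgeR and DESeq2 as alternatives.

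The main test was limma (trend, robust) on log2(normalized value + 1), a scale that understates changes of low taxa, with 4 group means over all 33 rats. Features with a normalized value of at least 10 in at least 7 libraries were kept (1418 of 1455 genera, 4641 of 5999 species), and all 1057 subsystems. On percent, log2 odds were used, with 0.5 reads added. These odds are of all classified reads, and not of bacterial reads alone. Comparisons were SHR minus WKY in each sex, female minus male in each strain, and strain by sex. Rats of a group were taken as independent, and shared cages or litters would make p-values too small. The fit was also run on simulated counts, drawn independently for each genus with the same dispersion for all. In the real data genera vary together, so that run checks the code only and bears on no result here. Ratios to Roseburia were tested by exact permutation, and the same over all genera was added after seeing the data.

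The text names all 6 genera, their species (at most 5 each), the 3 genera most like each and genera from the lists of other butyrate producers and of acetate and lactate suppliers. Acidaminococcus, Lachnoclostridium and others were picked from those lists for their values.

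Alternatives were other scales (percent, the share without Lactobacillaceae and Akkermansia, centred log-ratios), edgeR with TMM, DESeq2, a pseudocount of 10, no filter, only the groups compared, no 3 shallowest libraries, and each library left out. Percent without SHR female 1, and edgeR for subsystems, were added after seeing the data. Fits ran in limma 3.58.1, with DESeq2 1.42.0 and edgeR 4.0.16 as count tools, all under R 4.3.3. Permutations ran in Python 3.11.15.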

Additional observations from a re-analysis of the deposited data

Results flagged for a closer look

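SHR female 1 stood far above the other 9 SHR females in several members at once, by the gap to the next rat relative to the range of the group. It held 2.36% of reads as Roseburia, 0.796% as Anaerostipes, 0.368% as Anaerobutyricum and 0.215% as Pseudobutyrivibrio. Among species it held 1.16% as Roseburia intestinalis, 1.09% as Roseburia hominis, 0.230% as Anaerostipes hadrus, 0.247% as Anaerostipes rhamnosivorans and 0.206% as Butyrivibrio proteoclasticus. The other 9 SHR females reached at most 1.46% for Roseburia and 0.524% for Anaerostipes. Without this rat the mean of Roseburia in SHR females was 1.07 ± 0.194% (n = 9) in place of 1.201 ± 0.446%. Faecalibacterium was not among these, at a mean of 0.610% without it and 0.625% with it. The library held 467250 reads, above the median of its group. WKY female 1 stood apart in Anaerobutyricum, at 0.289%. In all, 10 of 56 sets of a taxon and a group were singled out, and chance singles out about 1 in 20. The sets are not independent, since the members vary together and species are parts of genera.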

How the results depend on the processing

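Counts of called genera and species moved in few settings. Between the strains in females, percent of reads called 1 genus and 2 species, and 1 species without SHR female 1. In males DESeq2 called 1 genus and 1 species. Between the sexes of WKY the 1 called genus became 0 on percent of reads (with and without SHR female 1), on the share without Lactobacillaceae and Akkermansia and with only the groups compared, and DESeq2 called 1 species. With each library left out, the count ran from 0 to 1 there. It was 0 throughout in the other comparisons on the size-factor scale, and 3 to 5 for the ratios to Roseburia. No other setting moved a count, including those of the subsystems. Several values near 0 changed sign, all without a call, and the cause was not tested.

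On percent of reads, values in males turned positive for Anaerostipes (0.39), Anaerobutyricum (0.23), Pseudobutyrivibrio (0.37), Anaerostipes caccae (0.33), Anaerostipes hadrus (0.36), Butyrivibrio proteoclasticus (0.27) and Butyrivibrio hungatei (0.29). In females they turned positive for Pseudobutyrivibrio (0.32, or 0.21 without SHR female 1) and Anaerostipes caccae (0.091). On the share without Lactobacillaceae and Akkermansia the male values of the same taxa in that order were 0.17, 0.0037, 0.14, 0.11, 0.13, 0.049 and 0.068, Pseudobutyrivibrio in females was 0.11, and Anaerostipes between the sexes of WKY was -0.011. DESeq2 gave -0.0071 for Anaerobutyricum in females and edgeR -0.027 for Anaerostipes between the sexes of WKY. Without the 3 shallowest libraries, Anaerostipes and Pseudobutyrivibrio in males were 0.016 and 0.0070. No paired analysis was possible because the replicate numbers were given in accession order and pair no rats.

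With 1 library left out, ranges crossed 0 in females for Anaerostipes (-0.014 to 0.13), Anaerobutyricum (-0.042 to 0.14), Pseudobutyrivibrio (-0.16 to 0.037), Anaerostipes hadrus (-0.0057 to 0.16), Butyrivibrio proteoclasticus (-0.040 to 0.11) and Butyrivibrio hungatei (-0.037 to 0.12). In males they did for Anaerostipes (-0.098 to 0.096), Butyrivibrio (-0.11 to 0.088), Pseudobutyrivibrio (-0.13 to 0.058), Roseburia hominis (-0.12 to 0.18), Anaerostipes caccae (-0.16 to 0.028), Anaerostipes rhamnosivorans (-0.053 to 0.14) and Anaerostipes hadrus (-0.15 to 0.083). Between the sexes of WKY they did for Anaerostipes (-0.052 to 0.14), Anaerobutyricum (-0.25 to 0.023) and Butyrivibrio (-0.051 to 0.14). Leaving out SHR female 1 gave the lowest value in females for Roseburia, Anaerostipes, Anaerobutyricum, Butyrivibrio and Pseudobutyrivibrio. Among species it did so for Roseburia intestinalis, Roseburia hominis, Anaerostipes caccae, Anaerostipes rhamnosivorans and the named species of Butyrivibrio. It did not for Faecalibacterium or Anaerostipes hadrus.

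Depth differed with strain, and the smallest member, Pseudobutyrivibrio, rested on 146 to 1004 reads per library.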
